A study of Drosophila melanogaster with 2 samples.

Results

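Aminoacyl-tRNA synthetases are the enzymes that load each amino acid onto its transfer RNA. Their genes were chosen by symbol, as protein-coding genes of the Ensembl annotation of the Drosophila melanogaster genome whose names join 1 or more amino acid codes to RS. The rule found 33 of 13945 protein-coding genes. Of these, 18 encode cytoplasmic enzymes and 15 carry the suffix -m of the mitochondrial enzymes. The subunits of the cytoplasmic phenylalanine enzyme, alpha-PheRS and beta-PheRS, fall outside the symbol rule and are given with the related genes.

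Occupancy at these genes was measured by chromatin immunoprecipitation and sequencing (ChIP-seq) of a single tagged protein, the product of CG15812, in whole embryos. The embryos were 0 to 24 h old, of pooled males and females, from a transgenic line that carries CG15812 with GFP fused at its C terminus. The 2 samples were biological replicates of 1 group, with 1 control alignment in common and no second genotype, treatment or stage, so nothing was compared between conditions. The labels call the factor pfk, whereas the annotation gives the symbol Pfk to phosphofructokinase, a different gene. The free-text description calls both samples input controls, whereas their assay and antibody entries mark immunoprecipitations, and they were read here as the latter. Whole embryos mix many cell types, so a signal in a few cells and a weak signal in many cannot be told apart.

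The deposited data were 4 lists of regions on build dm6, each region with a summit and a signal value in the authors' own units. Replicate 1, replicate 2 and the pooled replicates each have a relaxed list of 30000 regions, which includes background. The fourth, the IDR list, holds 2886 regions kept by the authors' filter on the irreproducible discovery rate, which asks how alike the replicates rank a region. Signals in that IDR list started at 127.8 and had a median of 201.6. The relaxed lists ended at 26.53 in the pooled list, 15.32 in replicate 1 and 15.89 in replicate 2, so a gene without a region has a signal below those values rather than 0. Read depth is unknown, and the exact 95% intervals given below (Clopper-Pearson) cover counting error over genes only. A gene was counted as having a summit where the summit lay within 1 kb of any of its annotated transcription start sites (TSSs).

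Each synthetase activates its amino acid with ATP and transfers it to the matching transfer RNA, and the enzymes fall into class I and class II, which differ in the fold of the catalytic domain. In animals, mitochondria import their synthetases from the cytoplasm, mostly as products of separate nuclear genes. Some genes, such as those for glycine and lysine in mammals, serve both compartments, so the absence of the suffix does not exclude a mitochondrial product. The symbol rule found no -m gene for histidine, so this caveat covers HisRS, which is counted here as cytoplasmic. Several cytoplasmic enzymes assemble into a multi-synthetase complex, as described in mammals, and GluProRS joins the glutamate and proline activities in 1 polypeptide. Cytoplasmic synthetase genes in mammals are known targets of ATF4, the transcription factor of the amino acid response, whose fly counterpart is crc.

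The summit windows of the synthetase genes in the IDR list are printed first because these windows carry the family's highest pooled signals within 1 kb of a TSS. Each reaches 50 bp to either side of the summit and is written 5′ to 3′ on the strand of the gene, from the Release 6 (dm6) assembly. Capitals would mark a match to any of 6 motifs, described further below, and these 4 windows hold none as printed. The window of AsnRS, at chr2L:19131955-19132034 on the minus strand, was trimmed at the start site of the gene. The others lie at chr3R:23958542-23958642 on the minus strand for GluProRS, chrX:18515326-18515426 on the plus strand for HisRS and chr3L:22288444-22288544 on the plus strand for IleRS. The window of SerRS lies partly in annotated 5′ exons and is not printed.
AsnRS summit: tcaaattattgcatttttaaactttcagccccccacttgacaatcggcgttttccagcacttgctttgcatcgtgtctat
GluProRS summit: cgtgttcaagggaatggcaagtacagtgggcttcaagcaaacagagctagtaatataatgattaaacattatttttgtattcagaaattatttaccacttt
HisRS summit: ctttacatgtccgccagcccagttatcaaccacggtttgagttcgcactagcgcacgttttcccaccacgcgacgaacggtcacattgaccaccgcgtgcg
IleRS summit: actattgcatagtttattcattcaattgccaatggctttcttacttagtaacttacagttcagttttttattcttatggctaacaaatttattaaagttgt

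The base composition of these windows varied widely. The printed window of HisRS had 57.4% G+C, that of AsnRS 41.2%, that of GluProRS 32.7% and that of IleRS 26.7%. Over the full summit windows of the 5 genes the median was 32.7%, against 44.6% over all 2886 IDR summits.

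Of the 33 synthetase genes, 5 had an IDR summit within 1 kb of a TSS (15.2%, exact 95% interval 5.11 to 31.9%), against 16.0% of all protein-coding genes, so the share in the family was near the background. All 5 encode cytoplasmic enzymes: AsnRS, GluProRS, HisRS, IleRS and SerRS. That is 27.8% of the 18 cytoplasmic genes (9.69 to 53.5%) and 0 of the 15 mitochondrial genes, which allows a share of up to 21.8%. The 2 intervals overlap, and the interval of each holds the background of 16.0%.

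SerRS, which charges transfer RNA with serine, had the highest pooled signal of the family within 1 kb of a TSS. Its signal was 157.1 in the pooled list, 72.30 in replicate 1 and 88.35 in replicate 2. The gene (FBgn0031497) lies at chr2L:3035493-3037403 on the minus strand, and its summit fell 35 bp upstream of its start site. It ranked 2043 in the pooled list, 3041 in replicate 1 and 1691 in replicate 2. In the pooled list 11.4% of all protein-coding genes had a higher signal.

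GluProRS, the fused enzyme for glutamate and proline, followed with a signal of 152.1 in the pooled list, 75.48 in replicate 1 and 92.17 in replicate 2. The gene (FBgn0005674) lies at chr3R:23952136-23958391 on the minus strand. Its summit lay 201 bp upstream of its TSS, the farthest of the 5, and ranked 2153. GluProRS was also the only 1 of the 5 among the 2886 highest regions of both replicates, at rank 2796 in replicate 1 and rank 1603 in replicate 2.

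IleRS, the isoleucine enzyme, had 136.3 in the pooled list, 56.37 in replicate 1 and 82.11 in replicate 2. The gene (FBgn0027086) lies at chr3L:22288665-22292810 on the plus strand, with its summit 171 bp upstream. Its ranks were 2603 in the pooled list, 4529 in replicate 1 and 1871 in replicate 2, so it stood higher in replicate 2.

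AsnRS, the asparagine enzyme, was the 1 gene of the 5 with the higher signal in replicate 1. Its signal was 134.5 in the pooled list, 93.08 in replicate 1 and 53.84 in replicate 2. The gene (FBgn0086443) lies at chr2L:19129469-19131954 on the minus strand, and its summit lay 30 bp upstream in the pooled list and in replicate 1 but at -123 bp in replicate 2. It ranked 2665 in the pooled list, 1975 in replicate 1 and 3673 in replicate 2.

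HisRS, the histidine enzyme, had the lowest pooled signal of the 5, at 132.9, with 64.42 in replicate 1 and 67.92 in replicate 2. The gene (FBgn0027087) lies at chrX:18515428-18520445 on the plus strand, with its summit 52 bp upstream. It ranked 2711 in the pooled list, 3698 in replicate 1 and 2455 in replicate 2. The pooled signals of all 5 genes, from 132.9 to 157.1, lay in the lower part of the IDR list, whose median was 201.6. No synthetase gene had a summit within 1 kb of a TSS in the 1443 highest regions of that list, against 8.26% of all protein-coding genes.

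**Figure D1:**
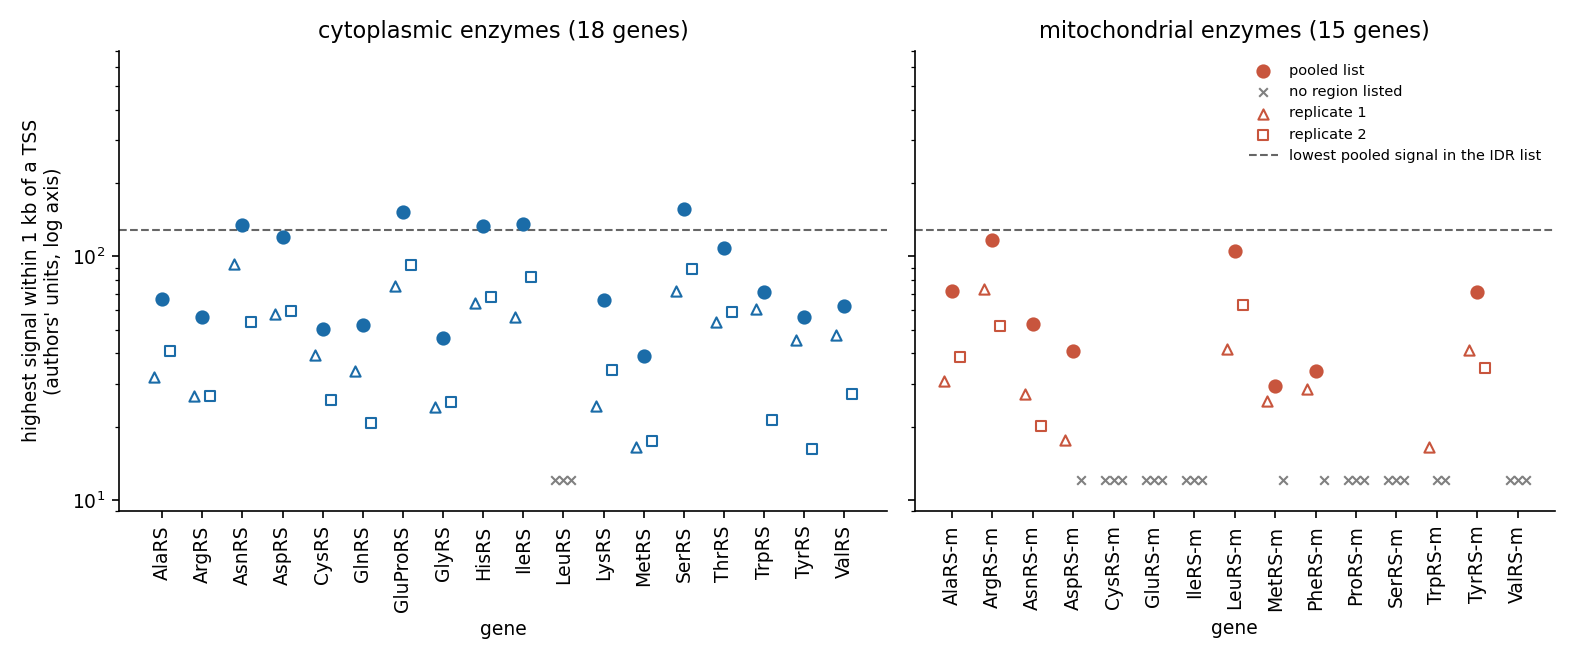
Highest signal within 1 kb of a TSS for each of the 33 synthetase genes, in the authors' units on a log axis, with cytoplasmic enzymes on the left and mitochondrial enzymes on the right. Filled circles are the pooled list, triangles replicate 1, squares replicate 2 and crosses mark lists with no region; 5 cytoplasmic genes sit above the dashed line at 127.8, the lowest pooled signal of the IDR list, and no mitochondrial gene does.

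Several genes lay just outside the IDR list. AspRS, the aspartate enzyme, had 119.6 in the pooled list, 58.19 in replicate 1 and 59.70 in replicate 2. ArgRS-m, the mitochondrial arginine enzyme, had 116.7 in the pooled list, 73.40 in replicate 1 and 51.81 in replicate 2. ThrRS, the threonine enzyme, had 108.4, 53.70 and 59.13 in the same order. LeuRS-m, the mitochondrial leucine enzyme, had 105.5 in the pooled list, 41.58 in replicate 1 and 63.25 in replicate 2, but not at 1 site. Its summit lay at -886 bp in the pooled list and -864 bp in replicate 2, the replicate 1 summit lay at -69 bp, and replicate 1 had 16.81 at the summit nearest to the pooled one. These 4 genes had the same −log10 q-value, 3.950, as every region of the IDR list, so the q-value did not separate them from the 5 genes above 127.8.

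The remaining cytoplasmic genes with a pooled region ranged from 39.07 at MetRS, the methionine enzyme, to 71.60 at TrpRS, the tryptophan enzyme. Between them stood AlaRS at 66.64, LysRS at 66.39, ValRS at 62.48, ArgRS at 56.27, TyrRS at 56.14, GlnRS at 52.22, CysRS at 50.22 and GlyRS at 46.26. LeuRS, the cytoplasmic leucine enzyme, had no summit within 1 kb of its TSS in any of the 4 lists. Its nearest IDR summit was 36174 bp away. Cytoplasmic genes were thus present in the relaxed lists almost without exception, at pooled signals from 39.07 to 157.1.

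Fewer mitochondrial genes had a region in any list. AlaRS-m had a pooled signal of 72.23 and TyrRS-m of 71.39, with regions in both replicates. AsnRS-m had 52.75, AspRS-m 40.97, PheRS-m 33.97 and MetRS-m 29.26, and the last 3 had no region in replicate 2. TrpRS-m had a region in replicate 1 alone, with a signal of 16.42 against a floor of 15.32. CysRS-m, GluRS-m, IleRS-m, ProRS-m, SerRS-m and ValRS-m had no region in any list.

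In the relaxed pooled list, 25 of the 33 genes had a region (75.8%, 57.7 to 88.9%), against 63.2% of all protein-coding genes. The 25 were 17 of 18 cytoplasmic genes (94.4%, 72.7 to 99.9%) and 8 of 15 mitochondrial genes (53.3%, 26.6 to 78.7%). Replicate 1 listed 17 cytoplasmic genes and 9 mitochondrial genes (60.0%, 32.3 to 83.7%), against 64.2% of all genes. Replicate 2 listed 17 cytoplasmic genes and 5 mitochondrial genes (33.3%, 11.8 to 61.6%), against 60.9% of all genes. The cytoplasmic count was the same in all 3 relaxed lists and above the background in each. The mitochondrial share was below the background in each list, but its interval held the background in all 3.

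The medians had the same order. With genes that lack a region set to the floor of the list, the median pooled signal was 66.52 for cytoplasmic genes, 29.26 for mitochondrial genes and 41.32 for all protein-coding genes. In replicate 1 the medians were 46.31 for cytoplasmic genes, 17.56 for mitochondrial genes and 25.25 for all genes. In replicate 2 they were 30.78 for cytoplasmic genes, 15.89 for mitochondrial genes, which is the floor, and 21.34 for all genes. Among all protein-coding genes, 35.1% had a pooled signal above the cytoplasmic median and 60.3% had one above the mitochondrial median.

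**Figure D2:**
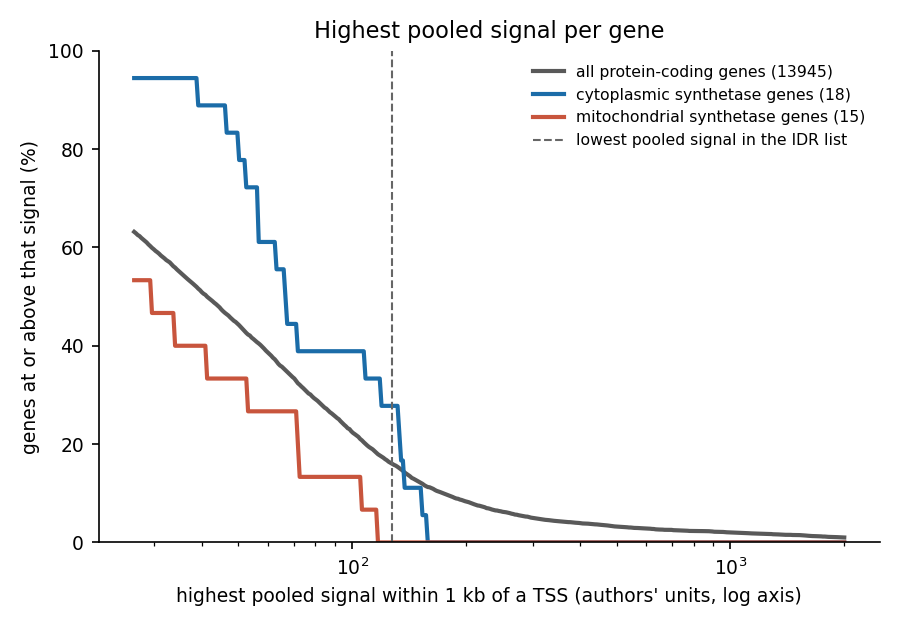
Share of genes (%) whose highest pooled signal within 1 kb of a TSS reached the value on the horizontal log axis, for all 13945 protein-coding genes (grey), 18 cytoplasmic synthetase genes (blue) and 15 mitochondrial synthetase genes (red). The blue curve lies above the grey one up to the dashed line at 127.8 and ends at 157.1, and the red curve lies below the grey one throughout.

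Enzymes for the same amino acid were then set side by side, which gave 14 pairs of a cytoplasmic and a mitochondrial gene, with GluProRS in a pair each with GluRS-m and ProRS-m. The cytoplasmic gene had the higher pooled signal in 10 pairs and the mitochondrial gene in 4, and in each replicate these counts were 11 and 3. The order was the same in the pooled list and both replicates for 9 of the pairs with the cytoplasmic gene higher. The exception was methionine, where replicate 1 had 25.45 at MetRS-m against 16.44 at MetRS. SerRS had 157.1 while SerRS-m had no region, and IleRS had 136.3 while IleRS-m had none. AsnRS had 134.5 against 52.75 at AsnRS-m, and AspRS had 119.6 against 40.97 at AspRS-m. The order was the opposite for arginine, with 116.7 at ArgRS-m against 56.27 at ArgRS, and for leucine, with 105.5 at LeuRS-m and no region at LeuRS. Arginine and leucine were the 2 amino acids with the mitochondrial gene higher in all 3 relaxed lists. The pooled summit of ArgRS-m lay 222 bp from its own TSS and 90 bp from that of CG17816. That of LeuRS-m lay 886 bp from its own TSS and 720 bp from that of Dhc64C. A neighbour's TSS was also nearer at AlaRS-m and TyrRS-m, and at the cytoplasmic AspRS, GluProRS, MetRS, SerRS, TrpRS and ValRS. The same held for GlyRS, which is in none of these pairs, with 299 bp to its own TSS and 119 bp to that of Plp. For alanine the order turned between lists, with 72.23 at AlaRS-m against 66.64 at AlaRS in the pooled list but 30.72 against 32.09 in replicate 1 and 38.70 against 40.92 in replicate 2. For tyrosine, TyrRS-m was higher in the pooled list, at 71.39 against 56.14, and in replicate 2, at 34.65 against 16.23, but lower in replicate 1, at 41.30 against 45.22 at TyrRS.

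Groups by enzyme class and by complex were small, and their counts stand against 16.0% of all protein-coding genes with an IDR summit. IleRS was the only gene of 18 class I genes with an IDR summit, and AsnRS, HisRS and SerRS were the 3 of 14 class II genes. Within the cytoplasmic genes these counts were 1 of 9 class I and 3 of 8 class II, with GluProRS, which has both, left out. Of the 8 genes whose mammalian counterparts sit in the multi-synthetase complex, GluProRS and IleRS had an IDR summit, and of the 10 other cytoplasmic genes AsnRS, HisRS and SerRS had one. IDR summits occurred in both classes and both inside and outside the complex, and counts this small do not separate any of these groups from that share.

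The replicates ranked these genes differently. As log2 of the replicate 1 signal over the replicate 2 signal, AsnRS had 0.79, HisRS -0.08, GluProRS -0.29, SerRS -0.29 and IleRS -0.54. The median over the 5 genes was -0.29, against 0.19 ± 0.48 (SD over genes) for the 2223 protein-coding genes with an IDR summit and a region in both replicates. AsnRS was thus the only one of the 5 above the median of all such genes, and the lists of the replicates are not scaled to each other. Outside the IDR list, TrpRS had a signal of 60.80 in replicate 1 and 21.31 in replicate 2, and TyrRS had 45.22 and 16.23. The log2 difference was 1.51 at TrpRS and 1.48 at TyrRS, the largest in the family by the highest summit of each replicate. The TyrRS summits were not at 1 site, with -220 bp in replicate 1 and 11 bp in replicate 2. With the replicate summit nearest to the pooled one, LeuRS-m had -1.91, ValRS 1.55, TrpRS 1.51 and TyrRS 1.23.

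Counts from 1 replicate at a time also differed. Among the 2886 highest regions of replicate 1, synthetase genes with a summit were AsnRS and GluProRS, 2 of 33, against 16.2% of all protein-coding genes. Among the 2886 highest regions of replicate 2, they were GluProRS, HisRS, IleRS, SerRS and LeuRS-m, 5 of 33, against 15.3% of all genes. LeuRS-m was the only mitochondrial gene in either set, and its replicate 2 summit lay at -864 bp from its TSS.

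The summits lay mostly upstream of the synthetase start sites, where several were nearer to a neighbour's start site, at the genes named above. Of the 25 genes with a pooled region, 22 had the highest summit upstream of the nearest TSS (88.0%), against 71.0% of the 8809 protein-coding genes with such a region, and 12 had it within 100 bp (48.0%), against 41.2%. The positions ran from -886 bp at LeuRS-m to 177 bp at MetRS-m, with a median of -94 bp, against -70 bp over all genes. Both compartments were alike in this, with 15 of 17 cytoplasmic and 7 of 8 mitochondrial summits upstream.

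Most synthetase genes share their upstream region with another gene. A start site of another protein-coding gene lay within 1 kb of a TSS of 25 of the 33 genes (75.8%), against 42.9% of all protein-coding genes. This held for 18 of 18 cytoplasmic genes and 7 of 15 mitochondrial genes (46.7%). In 16 of the cytoplasmic genes (88.9%) and 7 of the mitochondrial genes the neighbour was divergent, on the opposite strand and pointing away, against 36.2% of all genes. Among all genes with such a neighbour within 1 kb, 22.6% had an IDR summit, and among those without one 11.0% did. All 5 synthetase genes with an IDR summit were in the former group, where the counts were 5 of 18 cytoplasmic genes and 0 of 7 mitochondrial genes. A relaxed pooled region was present at 77.5% of all genes with such a neighbour and at 52.4% of those without. The corresponding counts were 17 of 18 cytoplasmic genes, whose interval of 72.7 to 99.9% holds 77.5%, 5 of 7 mitochondrial genes with a neighbour and 3 of 8 without, AspRS-m, MetRS-m and PheRS-m. The density of neighbours therefore moved with the difference between the compartments, and its part in that difference was not tested.

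At each of the 5 genes the summit could belong to a neighbour as well. The SerRS summit lay 35 bp from the SerRS start site and 27 bp from that of CG17260, inside an annotated 5′ exon of CG17260. The GluProRS summit lay 201 bp from the GluProRS start site and 59 bp from that of AP-1sigma, a subunit of a clathrin adaptor. For AsnRS the distances were 30 bp to AsnRS and 339 bp to DCTN6-p27, a dynactin subunit, and for IleRS 171 bp to IleRS and 299 bp to Hem, a component of the actin-regulating WAVE complex. HisRS shares its start site at 18515428 with Bx, a LIM-domain gene transcribed from the same strand, and the summit 52 bp upstream belongs to both, while CG6470 starts 509 bp away.

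**Figure D3:**
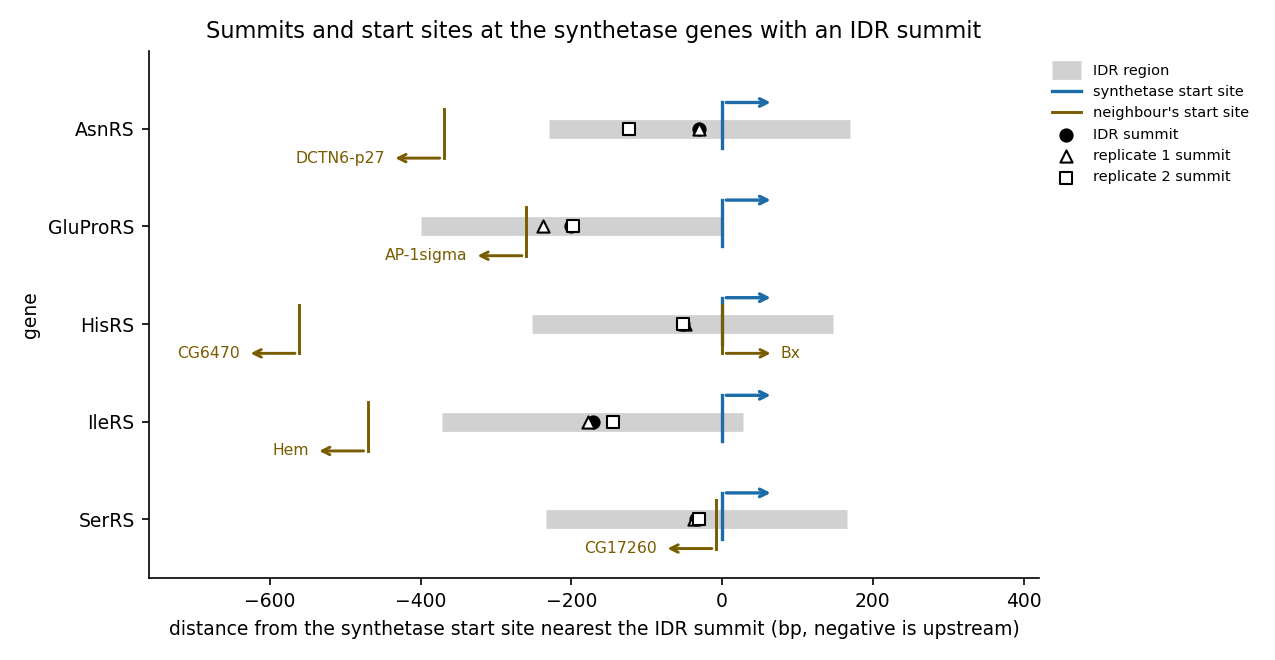
IDR regions (grey bars) and summits at the 5 synthetase genes, by distance in bp from the start site nearest the summit, with upstream to the left and arrows for start sites of the synthetase (blue) and of neighbours (brown). The filled circle is the IDR summit, the triangle that of replicate 1 and the square that of replicate 2; the neighbour's site is nearer at GluProRS and SerRS and is shared at HisRS.

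How a summit was assigned to a gene changed which genes were counted. With a limit of 500 bp in place of 1 kb the same 5 genes were counted, against 13.9% of all protein-coding genes, and with the outermost TSS of each gene alone the same 5 again, against 14.5%. Where the IDR region itself had to overlap a TSS, 4 of 33 genes were left, against 10.7% of all genes, because the region of GluProRS starts next to its TSS without covering it. Where a summit was given only to the gene with the nearest TSS, AsnRS, HisRS and IleRS were left, 3 of 33 (9.09%, 1.92 to 24.3%), against 12.1% of all genes. The count for the mitochondrial genes was 0 under each of these 4 rules.

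The 6 motifs were read on both strands, and no motif's letters hold those of another. They were GGAACG, the DNA replication-related element (DRE) TATCGATA, the letters GGTCACAC of the M1BP element, the E-box CAGCTG, TGATGNAA of the ATF4 type and GAGAG of the GAGA type. GGAACG occurred within 50 bp of 14.7% of all IDR summits and of 4.32% of all pooled summits. It occurred at 0 of the 5 synthetase IDR summits, which allows a share of up to 52.2%, and at 1 of the 25 pooled summits, that of GlnRS. Any of the 6 motifs occurred at 40.4% of all IDR summits and at 1 of the 5 synthetase summits, AsnRS, whose GAGAG starts 12 bp downstream of the TSS, outside the printed window. Within 100 bp, 4 of the 5 held a motif, against 59.5% of all IDR summits.

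GlnRS, the glutamine enzyme, had a pooled signal of 52.22 and is the 1 gene of the family with GGAACG within 50 bp of its pooled summit. ArgRS-m had the highest mitochondrial signal in the pooled list, and its window holds overlapping copies of GAGAG. IleRS-m holds the reverse complement CGTTCC in its promoter and had no region in any list, and is shown beside GlnRS for that reason. The GlnRS window lies at chr3R:25265723-25265823 on the minus strand, that of ArgRS-m at chr3R:7886773-7886873 on the plus strand, and the IleRS-m promoter at chr3L:16100089-16100279 on the plus strand, trimmed to bases outside exons. Capitals mark the motif letters.
GlnRS summit: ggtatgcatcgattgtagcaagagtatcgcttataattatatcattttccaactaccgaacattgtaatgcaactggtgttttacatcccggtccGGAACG
ArgRS-m summit: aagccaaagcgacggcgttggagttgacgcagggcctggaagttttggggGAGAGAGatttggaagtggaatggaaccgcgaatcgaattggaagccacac
IleRS-m promoter: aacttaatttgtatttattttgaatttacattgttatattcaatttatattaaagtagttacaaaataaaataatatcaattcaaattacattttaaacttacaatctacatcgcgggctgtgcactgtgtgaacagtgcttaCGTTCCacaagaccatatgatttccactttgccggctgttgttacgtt

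Promoters were read from 250 bp before to 50 bp after the TSS of every protein-coding gene. The E-box CAGCTG occurred in 16 of the 33 synthetase promoters (48.5%, 30.8 to 66.5%), against 17.7% of all promoters. It occurred in 9 of 18 cytoplasmic genes (95% interval 26.0 to 74.0%) and in 7 of 15 mitochondrial genes (46.7%, 21.3 to 73.4%). Its relation to the signals of the compartments was not tested. The 16 promoters held 20 copies, of which 13 started upstream of the TSS and 10 of these within 100 bp, with a median start at -30. An IDR summit was present at 4 of the 16 genes with the E-box, GluProRS, HisRS, IleRS and SerRS, and at 1 of the 17 without, AsnRS. Over all protein-coding genes the shares were 19.1% with the E-box and 15.3% without. These are promoter matches, and the E-box lay within 50 bp of 0 of the 5 synthetase IDR summits, against 8.07% of all IDR summits. Within 100 bp it lay at 3 of the 5, HisRS, IleRS and SerRS, against 14.0%. At GluProRS the copy started at 28 bp and the summit lay at -201 bp.

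The other motifs were rare in the family. DRE occurred in 5 promoters (15.2%, against 9.37% of all), those of AlaRS, ArgRS, IleRS, TrpRS and PheRS-m. The M1BP letters occurred in 4 (12.1%, against 7.71%), those of GlnRS, AsnRS-m, AspRS-m and ProRS-m. GAGAG occurred in 6 (18.2%, against 29.8%), GGAACG in 2 (6.06%, against 7.29%) and the ATF4 type in CysRS alone (3.03%, against 4.10%). Within 100 bp of the summit, the ATF4 type lay at 1 of the 5 synthetase IDR summits, AsnRS, against 2.18% of all IDR summits. The interval of that 1 of 5, 0.505 to 71.6%, holds the share of all IDR summits. Over all genes, 28.0% of those with GGAACG in the promoter had an IDR summit and 15.0% of those without it, whereas neither synthetase gene with GGAACG, GlnRS or IleRS-m, had one.

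**Figure D4:**
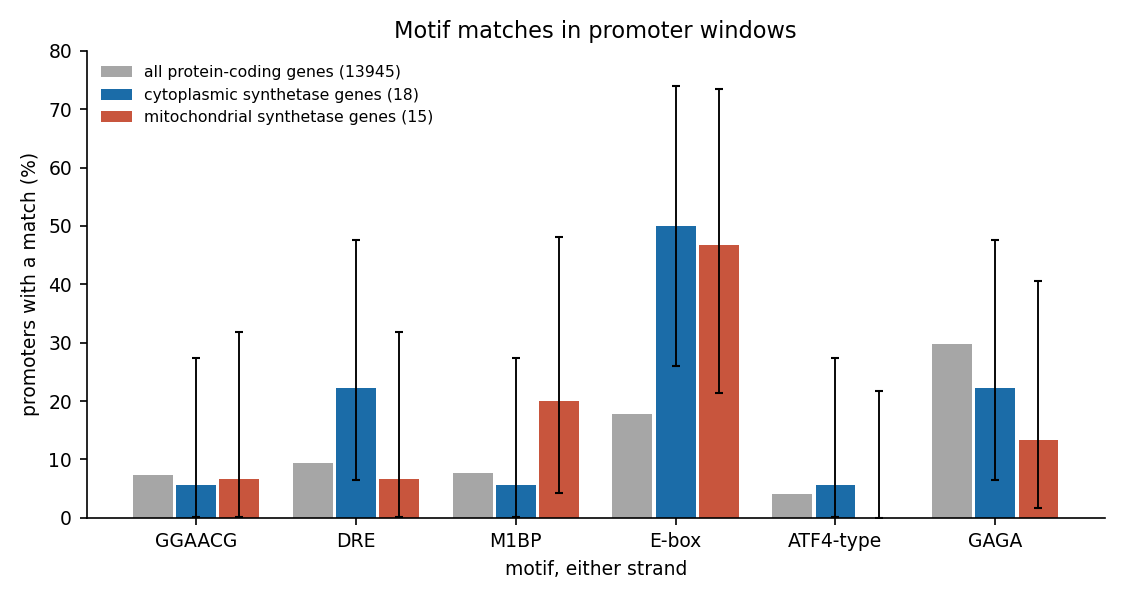
Share of promoters (%) with a match to each of 6 motifs on either strand, for all 13945 protein-coding genes (grey), 18 cytoplasmic synthetase genes (blue) and 15 mitochondrial synthetase genes (red), with exact 95% intervals as error bars on the synthetase groups. The E-box was present in 9 of 18 and 7 of 15 synthetase promoters, against 17.7% of all promoters.

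Among the 5 genes with an IDR summit, IleRS holds the most kinds of motif in its promoter. Its promoter at chr3L:22288415-22288664 on the plus strand, printed up to the base before the TSS, holds the E-box, DRE and GAGAG in that order, starting at -79, -42 and -16. All 3 lie nearer to the TSS than the IDR summit, 171 bp upstream.
IleRS promoter: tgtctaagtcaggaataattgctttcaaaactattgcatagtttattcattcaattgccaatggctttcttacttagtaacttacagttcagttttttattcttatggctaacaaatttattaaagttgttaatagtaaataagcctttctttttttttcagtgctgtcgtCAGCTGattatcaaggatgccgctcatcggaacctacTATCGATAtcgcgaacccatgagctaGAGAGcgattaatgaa

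Windows of 30 bases around the E-box of 9 synthetase genes show how far the match extends. The first 4 are the genes with an IDR summit, ArgRS is a cytoplasmic gene without one, and the last 4 are mitochondrial genes. The 6 letters in capitals are the motif, which reads the same on both strands. In AlaRS-m a further copy directly precedes the one in capitals. The flanking bases outside the capitals vary between the genes.
GluProRS E-box (chr3R:23958346-23958375, minus strand): tgtagacgttagCAGCTGgccgtactcgtg
HisRS E-box (chrX:18515447-18515476, plus strand): gcgcagaaaaagCAGCTGaaagctggaaaa
IleRS E-box (chr3L:22288574-22288603, plus strand): cagtgctgtcgtCAGCTGattatcaaggat
SerRS E-box (chr2L:3037515-3037544, minus strand): gactattttgaaCAGCTGctaaaagcaagt
ArgRS E-box (chrX:15844175-15844204, minus strand): gcgtgacatcacCAGCTGttatcgttatcg
AlaRS-m E-box (chr3L:5146024-5146053, plus strand): atagaacagctgCAGCTGgtgagcacgctt
LeuRS-m E-box (chr3L:4825851-4825880, plus strand): gatgcagagaaaCAGCTGttcgattgtaga
MetRS-m E-box (chr3R:14259979-14260008, minus strand): gcactggtggcaCAGCTGttcaatgttata
TrpRS-m E-box (chr3L:17849688-17849717, plus strand): tatcactgttcaCAGCTGtcgtaccggctt

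HisRS also had a far stronger summit inside the gene. This IDR region, chrX:18517462-18517799, had its summit 2216 bp from the shared start site of HisRS and Bx, in an annotated coding exon of HisRS, and is outside the 1 kb rule. Its signal was 653.8 in the pooled list, 341.4 in replicate 1 and 315.0 in replicate 2, at rank 423 of the pooled list, against 132.9 at the promoter summit. Its window at chrX:18517594-18517694 on the plus strand holds CGTTCC, the reverse complement of GGAACG, at the places in capitals.
HisRS gene body summit: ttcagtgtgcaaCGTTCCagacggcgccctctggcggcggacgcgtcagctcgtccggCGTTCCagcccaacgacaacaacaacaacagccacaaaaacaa

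Other genes of aminoacylation and of the amino acid response were read by the same rule. Of 9 genes for synthetase subunits, paralogs and cofactors, 1 had an IDR summit (11.1%, 0.281 to 48.2%), against 16.0% of all protein-coding genes. A relaxed pooled region was present at 8 of the 9, against 63.2% of all genes. The gene with the IDR summit was beta-PheRS, a subunit of the cytoplasmic phenylalanine enzyme. It had a signal of 140.6 in the pooled list, 89.70 in replicate 1 and 54.94 in replicate 2. Its signal thus fell within the range of the 5 synthetase genes. Its partner subunit alpha-PheRS had 66.72 in the pooled list, close to the cytoplasmic median of 66.52.

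Of 9 genes of the amino acid response, 4 had an IDR summit (44.4%, 13.7 to 78.8%), an interval that holds the 16.0% of all protein-coding genes. All 9 had a relaxed pooled region, against 63.2% of all genes. Atf3, a bZIP transcription factor, had a signal of 7837 in the pooled list, 3941 in replicate 1 and 4053 in replicate 2, at rank 25. The gene crc, the fly ATF4, had 224.5 in the pooled list, 100.2 in replicate 1 and 133.6 in replicate 2. The translation initiation factor subunit eIF2beta had 162.5 in the pooled list, 113.7 in replicate 1 and 46.61 in replicate 2. Thor, the fly 4E-BP that holds back cap-dependent translation, had 156.4, 97.82 and 57.24 in the same order. Every synthetase gene had a lower promoter signal than Atf3 and crc in all 3 lists. In the pooled list eIF2beta stood above every synthetase gene, and in replicate 2 it stood below SerRS at 88.35 and GluProRS at 92.17, among others. Of 8 mitochondrial translation factors, 0 had an IDR summit, which allows a share of up to 36.9% against the same 16.0%, and 5 had a relaxed pooled region, against 63.2%.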

How the data were processed

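ChIP-seq of GFP-tagged CG15812 was measured in 2 replicate embryo samples. The deposited files are peak lists on dm6, per the labels, and each replicate and the pooled replicates were listed against 1 shared control alignment, per the notes deposited with them. The authors deposited a signal value, a −log10 q-value and, in another column, a summit offset in bp for every region. How the signal was normalized, the aligner, the peak caller and the IDR cut-off are not given in the sources.

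Regions on Y were left out (3 pooled, 2 in replicate 1, 1 in replicate 2). Summits were joined to protein-coding TSSs of Ensembl release 115, and per gene the summit of highest signal within 1 kb was kept. Signals describe and rank regions within a list. Sequence came from the RefSeq copy of Release 6. Windows printed beyond 30 bases exclude annotated exons, except the coding exon of HisRS. Enzyme classes and complex membership are textbook knowledge. Shares have Clopper-Pearson intervals, and no test was run, because there is 1 group and the members and lists were chosen with earlier results of these data known. Every member was named, with signals and ranks for those in the IDR list, and of the other lists the members with an IDR summit. Named outside that rule, after their values were seen, were alpha-PheRS and the gene-body summits. The assignment and motif search were tested on simulated data. Python 3.11.15, pandas 2.3.3, numpy 2.4.6, scipy 1.17.1 and matplotlib 3.10.9 were used.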

Additional observations from a re-analysis of the deposited data

How the results depend on the processing

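Of 41 alternatives, 22 left the count or median near its value. Giving a summit only to the nearest TSS lowered the synthetase count from 5 to 3, all cytoplasmic (3 of 18). The share of all protein-coding genes fell from 16.0% to 12.1%. Keeping the upper part of the IDR list lowered the synthetase count to 0, with 0 cytoplasmic, against 8.26% of all genes. The relaxed pooled list raised the counts to 25 synthetase genes, 17 cytoplasmic and 8 mitochondrial, against 63.2% of all protein-coding genes. It raised them to 8, 9 and 5 genes in the lists of subunits, amino acid response and mitochondrial translation factors, against the same share. With 1 replicate left out and the highest regions of the other taken, the counts ranged from 2 to 5 for all synthetase genes, from 2 to 4 for cytoplasmic and from 0 to 1 for mitochondrial genes. Without replicate 2 they were AsnRS and GluProRS, and without replicate 1 LeuRS-m was the mitochondrial gene. The shares of all protein-coding genes were 16.2% without replicate 2 and 15.3% without replicate 1. In the replicate lists, which have their own scale, the median signal ranged from 30.78 to 46.31 for cytoplasmic and from 15.89 to 17.56 for mitochondrial genes. The mitochondrial median stayed below that of all genes in both. Windows of 100 bp raised the synthetase IDR summits with a motif from 1 to 4, while the share over all IDR summits rose from 40.4% to 59.5%. Promoter windows, which are longer and lie around the TSS in place of the summit, gave 5, against 57.7% of all promoters. Length and place were not separated. Depth is unknown, so a gene with no region has a signal below the floor of that list only. No paired analysis was possible because the replicates form 1 group.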

Other observations

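AspRS, which missed the IDR list within 1 kb of its start sites with a pooled signal of 119.6, had an IDR summit in an intron, 1423 bp from the nearest AspRS start site. Its signal was 198.5 in the pooled list, 105.0 in replicate 1 and 94.31 in replicate 2, at rank 1472. This intronic summit lay 55 bp from a start site of Nmda1, an NMDA receptor-associated gene transcribed from the opposite strand. The summit with 119.6 lay 203 bp from an AspRS start site and 149 bp from an Nmda1 start site. With HisRS, AspRS was 1 of the 2 synthetase genes with an IDR summit inside the gene and over 1 kb from its own start sites.

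PheRS-m, which had a pooled signal of 33.97 at its promoter, lay 1907 bp from the nearest IDR summit, and CysRS-m, with no region within 1 kb, lay 3670 bp from one. These were the mitochondrial genes nearest to an IDR summit. The mitochondrial gene farthest from one, AsnRS-m, at 83732 bp, had regions in all 3 relaxed lists.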
